A study of Sus scrofa with 6 samples.

Results

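The genes described here encode the peptide hormones of the enteroendocrine cells of the gut, with 2 granule proteins and an enzyme that mark these cells. Members were chosen by gene name (GIP, CCK, SST, GCG, PYY, NTS, MLN, CHGA, CHGB and TPH1). Of these 10, 9 have a row under their own name among the 24358 genes of the deposited table, and all 9 passed the filter on low values that left 12012 genes for testing. TPH1, the enzyme that starts serotonin synthesis in the gut, was not analysed here. A row named SAAL1 on the plus strand of chromosome 2, at positions 41028615 to 41356463, is described in the table as tryptophan hydroxylase 1. Its name and description differ, so it was not used in place of TPH1.

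RNA was sequenced from jejunum, the stretch of small intestine between duodenum and ileum, taken from weaned Large WhitexLandrace piglets. The 3 controls had no transport, the 3 other samples were taken after transport, and all 6 are labelled healthy. No label gives age, sex, journey length or time to sampling. Nor does any label say that replicates are different animals, so p-values measure only the spread between these samples, part of which may be technical.

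Enteroendocrine cells are rare, single cells scattered through the intestinal epithelium that release hormones in response to food. Different hormones prevail at different positions of the gut. GIP, CCK and motilin are known mainly from the duodenum and upper jejunum, while the proglucagon peptides, PYY and neurotensin become more common towards the ileum. The hormones are made as precursors, cut by prohormone convertases and stored in dense granules together with chromogranins. Cells arise from crypt progenitors that switch on NEUROG3.

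The libraries held 48208451 to 53739246 counts, of which the 9 genes took 0.0171% to 0.0692%. Transport 3 stood apart from the other libraries, with a median correlation of log2 CPM across genes of 0.818 with the rest against 0.888 to 0.930. It also carried ileal genes. FABP6, the ileal bile acid binding protein, had 2.83, 5.23 and 13.8 FPKM (counts per kilobase of transcript, scaled for library size) in controls 1 to 3, 3.0 and 8.06 in transports 1 and 2, and 6836 in transport 3. GATA4, a transcription factor of the proximal small intestine, had 0.906 FPKM there and 44.4 to 59.5 in the others. Control 2 was almost without muscle RNA, with 8.56 FPKM of the smooth muscle myosin MYH11 against 199.9 to 643 in the other 5 libraries. The part of these library differences in the results below was not tested. Main fold changes of the members, and the list medians that are printed, are given with and without transport 3.

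GIP, the glucose-dependent insulinotropic peptide of K cells, was the most abundant of the hormone genes in 5 of the 6 libraries. Its FPKM was 130.4, 33.8 and 34.0 in controls 1 to 3 and 158, 77.2 and 6.60 in transports 1 to 3. The gene lies on the minus strand of chromosome 12 at positions 25159807 to 25168041. Transport 1 and control 1 were highest, transport 3 was lowest by far, and the groups overlapped. The means were 66.1 ± 55.7 (SD, n = 3) in controls and 80.5 ± 75.6 after transport. EdgeR's quasi-likelihood test gave a log2 fold change, transport against control, of 0.24 ± 1.05 (standard error; adjusted p = 0.985). Without transport 3 it was 0.77 ± 0.69 (adjusted p = 0.967). Fold changes below are given in the same way. In the fit that pairs libraries of the same replicate number, GIP, CCK, GCG and MLN turned to -0.29, -0.08, -1.46 and -0.89.

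CCK, cholecystokinin of I cells, which contracts the gallbladder and stimulates the pancreas, ranked the 6 libraries in the same order as GIP. Its FPKM was 69.8, 22.1 and 33.1 in controls and 83.1, 57.5 and 9.80 after transport. The gene is on the minus strand of chromosome 13 at 25940674 to 25945884. Values again overlapped between the groups, with transports 1 and 2 above controls 2 and 3 and transport 3 below every control. CCK had a log2 fold change of 0.24 ± 0.79 (edgeR adjusted p = 0.981), and 0.72 ± 0.49 without transport 3 (adjusted p = 0.954).

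MLN, motilin, the hormone that drives the contractions of the fasting gut, had the widest range of the 9 genes. It had an FPKM of 36.2, 11.5 and 8.57 in controls and 33.6, 31.6 and 0.136 after transport. In transport 3 that was 7 counts, or 0.130 CPM (the count scaled to the library total) with a 95% counting interval of 0.0524 to 0.268, against 397 to 1594 counts in the other 5 libraries. The gene lies on the minus strand of chromosome 7 at 30003291 to 30013128. The highest library exceeded the lowest 266-fold, and 1.18% of the genes tested had a wider range. Between the groups MLN had a log2 fold change of 0.19 ± 1.40 (edgeR adjusted p = 0.991), and 0.75 ± 0.64 without transport 3 (adjusted p = 0.963).

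SST, somatostatin of D cells, which inhibits the release of most other gut hormones, varied less. Its FPKM was 30.7, 13.7 and 18.4 in controls and 24.7, 10.8 and 5.73 after transport. Control 1 and transport 1 were again the highest and transport 3 the lowest, and the groups overlapped. Its log2 fold change was -0.65 ± 0.59 (edgeR adjusted p = 0.906), and -0.28 ± 0.46 without transport 3 (adjusted p = 0.980). SST is on the minus strand of chromosome 13 at 125335801 to 125339512. A gene without a symbol, ENSSSCG00000039510, lies over it on the other strand with 2 to 7 counts per library, against 960 to 4619 for SST.

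**Figure D1:**
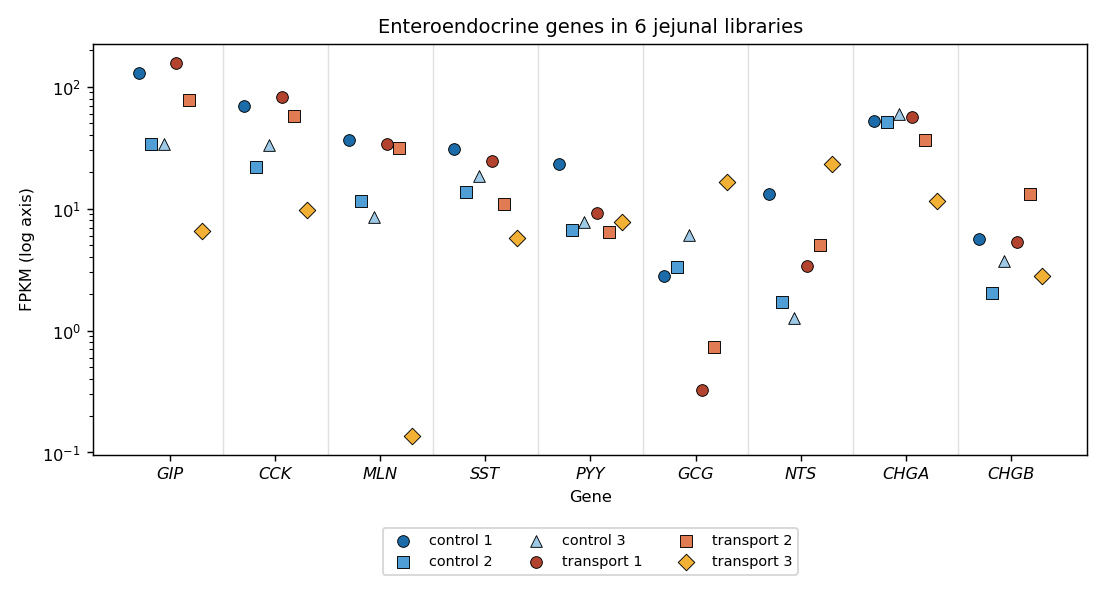
FPKM of the 9 genes on a log axis, with 1 point for each library (blue for the 3 controls, red to yellow for the 3 transport samples). Transport 3 is the lowest point for GIP, CCK, MLN, SST and CHGA and the highest for GCG and NTS, while GCG in transports 1 and 2 lies below all 3 controls.

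GCG, which encodes proglucagon and in L cells gives GLP-1 and GLP-2, had nearly the opposite order to GIP. Its FPKM was 2.80, 3.32 and 6.09 in controls and 0.324, 0.733 and 16.5 after transport. Transports 1 and 2 lay below every control, with 35 and 81 counts against 291 to 665, and transport 3 lay above all of them with 1908. Among the genes tested, 8.62% had transports 1 and 2 both below every control. The gene is on the minus strand of chromosome 15 at 68799768 to 68810305.

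Because the transport samples lay on both sides of the controls, the fold change of GCG turned with a single library. With 6 libraries it was 0.37 ± 1.26 on the log2 scale (edgeR adjusted p = 0.982). Without transport 3 it was -2.91 ± 0.59, with an unadjusted p of 0.00275 in edgeR's quasi-likelihood test and an adjusted p of 0.817. It was the only one of the 9 genes with an unadjusted p under 0.05 in that fit, a level that 5.05% of all genes tested reached there, while 0.025% of them passed the adjusted threshold. DESeq2 gave GCG no adjusted p.

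NTS, neurotensin of N cells, a peptide that slows gut movement and promotes fat absorption, was also highest in transport 3. Its FPKM was 13.1, 1.71 and 1.27 in controls and 3.36, 5.05 and 23.3 after transport. It differed from GCG in control 1, where NTS was the second highest of the 6 and GCG the lowest control. The gene is on the minus strand of chromosome 5 at 96260552 to 96272970. NTS had a log2 fold change of 0.81 ± 1.08 (edgeR adjusted p = 0.927), and -0.38 ± 1.07 without transport 3 (adjusted p = 0.990). Without control 1 it was 2.70 ± 0.93 (adjusted p = 0.996).

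PYY, peptide YY of L cells, which slows gastric emptying, did not share the high value of GCG and NTS in transport 3. Its FPKM was 23.1, 6.71 and 7.72 in controls and 9.16, 6.48 and 7.77 after transport. Control 1 was the highest and the other 5 libraries lay within 6.48 to 9.16. PYY is on the plus strand of chromosome 12 at 19206679 to 19208739. Its log2 fold change of -0.76 ± 0.54 (edgeR adjusted p = 0.890) rested on control 1 and was 0.07 ± 0.38 without it (adjusted p = 0.997). Without transport 3 it was -0.72 ± 0.61 (adjusted p = 0.962).

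CHGA, chromogranin A, the general granule marker of endocrine cells, was the most even of the genes in the controls. Its FPKM was 52.7, 50.9 and 59.4 in controls, 56.8 in transport 1, 36.7 in transport 2 and 11.5 in transport 3. The first 4 of these values lay between 50.9 and 59.4, while GIP ran from 33.8 to 158 in the same libraries. In bulk tissue fewer cells of a type and less RNA per cell cannot be told apart. Over all libraries CHGA had a log2 fold change of -0.66 ± 0.56 (edgeR adjusted p = 0.902), and -0.25 ± 0.24 without transport 3 (adjusted p = 0.967). CHGA lies on the plus strand of chromosome 7 at 114345091 to 114358571, inside RIN3 on the same strand, so reads of the pair may be shared. RIN3 had 736 to 2618 counts and CHGA 1936 to 9428, and in transport 3 RIN3 had more counts than CHGA.

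CHGB, chromogranin B, a related granule protein, did not follow CHGA. Its FPKM was 5.64, 2.02 and 3.70 in controls and 5.29, 13.1 and 2.81 after transport, highest in transport 2, where CHGA was the lowest but for transport 3. CHGB per CHGA ranged from 0.0397 in control 2 to 0.356 in transport 2. The gene is on the plus strand of chromosome 17 at 14747282 to 14761995. CHGB had a log2 fold change of 0.89 ± 0.68 (edgeR adjusted p = 0.894), 1.28 ± 0.56 without transport 3 (adjusted p = 0.954) and near 0 without transport 2 (-0.0029 ± 0.58, adjusted p = 0.999).

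For the question whether the genes differed after transport, none of the 9 passed an adjusted p of 0.05 in edgeR, where 2 of the 12012 genes tested (0.0167%) did. None had an unadjusted p under 0.05, which 5.13% of all genes had, and DESeq2 called none of the 8 to which it gave an adjusted p. All 9 overlapped between the groups, while 11.1% of the genes tested did not. The direction of the 9 genes together depended on the fit. Values were higher for 6 and lower for 3 over all libraries, with a median log2 fold change of 0.24 against 0.07 over all genes. Without transport 3 they were higher for 4 and lower for 5, with a median of -0.25 against 0 over all genes. In the fit that pairs libraries of the same replicate number they were higher for 2 and lower for 7, with a median of -0.52 against 0.05, and no member passed. The standard errors were large, with a median of 0.79 against 0.39 over all genes tested, and differences of the size of the standard errors could not be detected with 3 libraries a group.

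**Figure D2:**
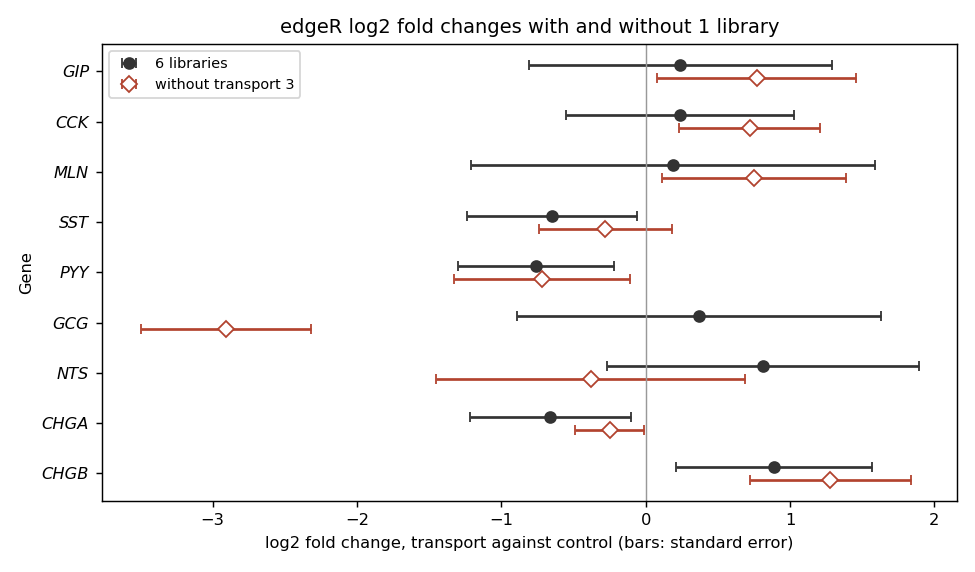
Log2 fold changes of transport against control from edgeR with their standard errors, over all 6 libraries (filled circles) and without transport 3 (open diamonds). GCG moves from 0.37 to -2.91 when that library is left out and NTS from 0.81 to -0.38, while GIP, CCK and MLN move up to 0.77, 0.72 and 0.75.

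The makeup of the hormone transcripts within each library does not depend on library scaling. Over the 7 peptide hormone genes (GIP, CCK, MLN, SST, PYY, GCG and NTS), the summed FPKM was 306, 92.8 and 109 in controls and 312, 189 and 69.9 after transport. GIP, CCK and MLN together made up 77.2%, 72.6% and 69.3% of that sum in controls, 88% and 87.8% in transports 1 and 2, and 23.6% in transport 3. GCG, PYY and NTS made up 12.7%, 12.6% and 13.8% in controls, 4.12% and 6.48% in transports 1 and 2, and 68.1% in transport 3. The controls lay close together in both shares, although control 1 had a far larger sum than controls 2 and 3. Transports 1 and 2 lay on 1 side of them and transport 3 on the other. Single genes within the second share were less even in controls 1 to 3. There GCG made up 0.916%, 3.57% and 5.58% of the sum and NTS 4.28%, 1.84% and 1.17%.

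The ratio of the first 3 genes to the last 3 was 6.07, 5.74 and 5.02 in controls and 21.4, 13.6 and 0.347 after transport. Of 9 ratios between single genes, GCG to GIP varied most, from 0.00205 in transport 1 to 2.51 in transport 3. SST to CHGA varied least, between 0.269 and 0.583, followed by GIP to CCK, between 0.673 and 1.90. NTS led the sum in transport 3 with 33.4%, followed by GCG with 23.6%, whereas GIP led in every other library with 31.2% to 50.5%.

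**Figure D3:**
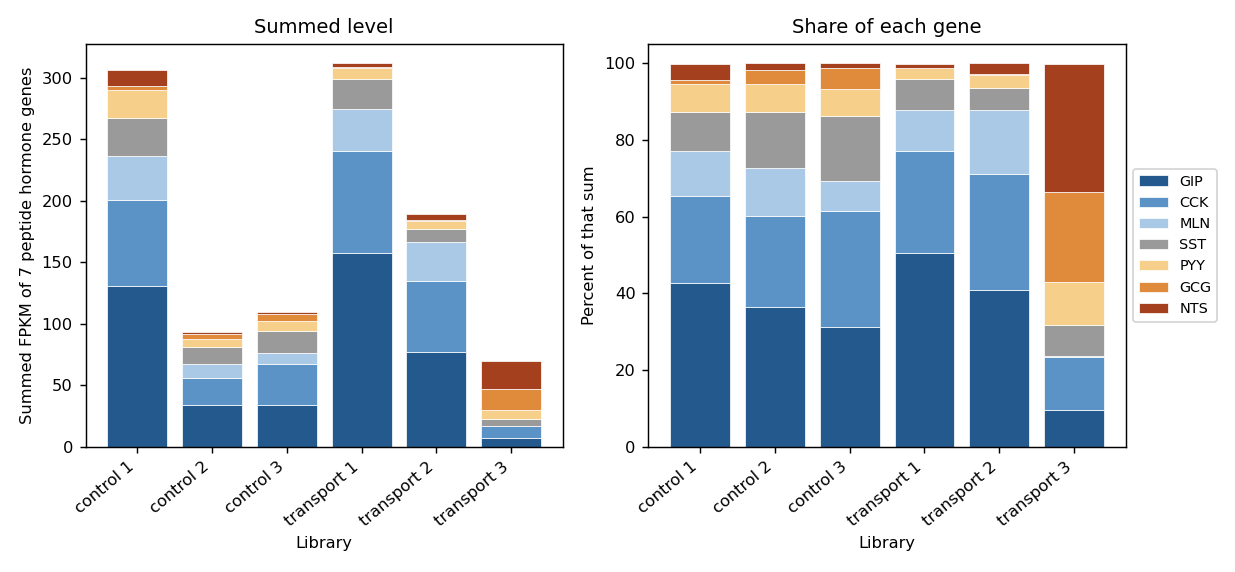
Summed FPKM of the 7 peptide hormone genes in each library (left) and the percent of that sum held by each gene (right). The blue part (GIP, CCK and MLN) fills 69.3% to 88% of 5 libraries and 23.6% of transport 3.

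The order of levels was compared over all libraries and over the controls. Over the 6 libraries the mean FPKM was 73.3 ± 59.9 (SD, n = 6) for GIP, 45.9 ± 28.7 for CCK, 44.7 ± 18.0 for CHGA, 20.3 ± 15.4 for MLN, 17.4 ± 9.22 for SST and 10.2 ± 6.40 for PYY. NTS followed with 7.97 ± 8.68, CHGB with 5.42 ± 4.0 and GCG with 4.97 ± 6.03. Each gene overlapped in its range with the next in this order. CHGA exceeded MLN in 6 of 6 libraries, and GIP exceeded CCK, SST exceeded PYY and PYY exceeded NTS in 5 of 6, so these steps held within most libraries. CCK and CHGA, MLN and SST, and CHGB and GCG changed places, each with the first above the other in 3 of 6 libraries, and NTS exceeded CHGB in 2 of 6. In the controls alone GIP (66.1 ± 55.7) was again first, CHGA (54.4 ± 4.45) came before CCK (41.6 ± 25), SST (20.9 ± 8.80) before MLN (18.8 ± 15.2), and CHGB (3.79 ± 1.81) was last, just under GCG (4.07 ± 1.77; SD, n = 3).

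Patterns over the libraries were compared by the root mean square difference of log2 CPM, each gene centred on its own mean, where 0 stands for the same pattern. GIP and CCK differed by 0.52, which made CCK the third nearest of the 12011 other genes tested to GIP and GIP the 66th nearest to CCK. SST and CHGA differed by 0.42, with SST the 334th nearest gene to CHGA and CHGA the 116th nearest to SST. MLN had GIP as its 29th nearest gene at 1.28. GCG was far from every other member, at 1.95 from PYY, 2.01 from NTS and 4.26 from MLN. These are descriptions over 6 libraries. Transport 3 lay farthest from the mean of the gene for GIP, CCK, SST, NTS, MLN and CHGA, but not for GCG, PYY and CHGB.

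**Figure D4:**
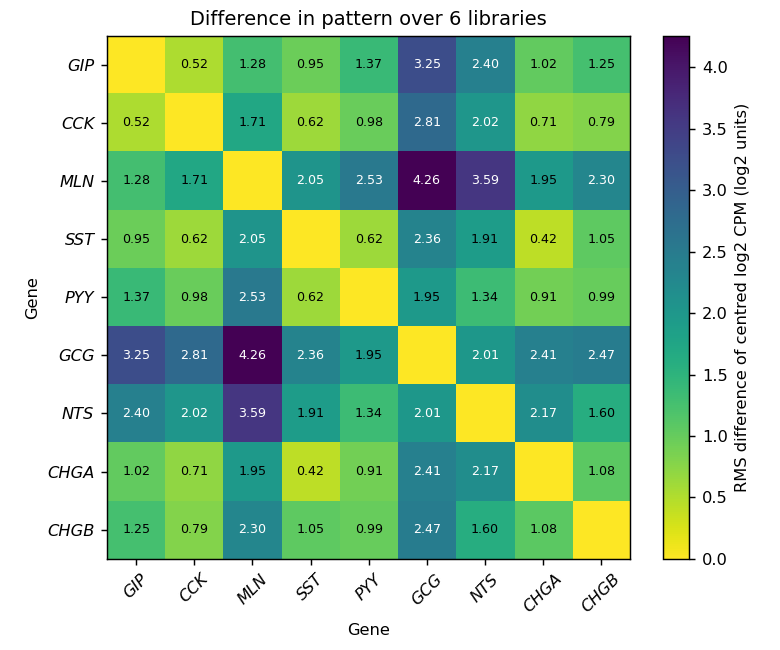
Root mean square difference of centred log2 CPM between each pair of the 9 genes over the 6 libraries, where a low value (yellow) marks a like pattern. GIP with CCK (0.52) and SST with CHGA (0.42) are among the most like pairs, and GCG with MLN (4.26) the least.

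Among genes with a symbol outside the group, the 2 nearest to each member were as follows. For CCK these were FAM234A and OVOL2, an epithelial transcription factor, both at 0.27. SH2D7 (0.22) and PENK (0.23), which encodes the opioid precursor proenkephalin, were the nearest of them to SST, and a gene without a symbol lay nearer. KRTCAP3 (0.09) and PYROXD2 (0.12) were nearest to CHGA, KLHL13 (0.13) and RAB11FIP5 (0.20) to PYY, and DOK4 (0.19) and TENT5B (0.30) to CHGB. GIP had SLC25A45 (0.52) and RGS11 (0.54), likewise after a gene without a symbol. The nearest to MLN were EPHX1, microsomal epoxide hydrolase, at 0.56 and S100G, the calcium-binding protein of the proximal enterocyte, at 0.68. S100G had 54.5 FPKM in transport 3 and 1866 to 3986 in the other libraries. GCG had IMPACT (0.49) and OSR2 (0.55), and NTS had ZNF76 (0.62) and DGCR2 (0.63).

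Other gut peptides gave no call. Of 18 such genes 17 were in the table and 9 were tested, none passed in either direction, and their median log2 fold change was -0.06, or 0.09 without transport 3. VIP, mainly a peptide of enteric neurons, had an FPKM of 24.8, 0.216 and 22.6 in controls and 16, 8.05 and 6.74 after transport. PENK had 9.49, 5.35 and 8.03, and 8.35, 5.41 and 2.31. GHRL, ghrelin, a hormone of stomach and upper gut, had 10.4, 0.134 and 1.24 in controls and 9.17, 7.03 and 0.538 after transport, so it was high in the libraries where GIP was high. SCT, secretin of the upper gut, is named with its values already known. It had 60, 0 and 11 counts in controls and 206, 222 and 0 after transport (log2 fold change 2.52 ± 1.89, edgeR adjusted p = 0.892; 3.09 without transport 3).

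Among 20 transcription factors of enteroendocrine differentiation, 8 were tested, none passed, and the median log2 fold change was -0.33, or 0.06 without transport 3. Transport 3 was the lowest library for 6 of the 8, as it was for 5 of the 9 hormone and granule genes and for 22.9% of all genes tested. It was also the lowest for 12 of the 15 epithelial markers, 8 of the 9 proximal markers and 6 of the 9 goblet cell genes tested. Low values there were thus not particular to enteroendocrine genes. Transport 3 was the highest library for 2 of the 9 hormone and granule genes, GCG and NTS, and for 40% of all genes tested. PDX1, a factor of pancreas, duodenum and upper jejunum that is also among the proximal markers below, had an FPKM of 7.34, 8.81 and 5.51 in controls, 21.4 and 30.5 in transports 1 and 2, and 0.149 in transport 3. In these libraries PDX1 was therefore high where the share of GIP, CCK and MLN was high. SOX4 had 2.39 to 6.39 FPKM and ATOH1, the factor of all secretory cells, 0.633 to 6.92, with overlap between groups. NEUROG3, which commits progenitors to the endocrine fate and was chosen after its values were seen, had 0.988, 1.53 and 2.53 in controls and 2.92, 0.819 and 0.131 after transport.

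Genes of prohormone processing and granules were tested for 13 of 30 symbols, and none passed (median 0.18, or 0.33 without transport 3). Without overlap between the groups, 1 of the 13 was lower, the vesicle protein gene SYP, against 4.19% of all genes tested. DDC, the decarboxylase that makes serotonin and dopamine and is also used by enterocytes, had an FPKM of 95, 59.4 and 50.3 in controls and 84.8, 229 and 14.8 after transport. PAM, which amidates peptides such as CCK and PYY, had 23.7, 9.28 and 18.0, and 24.2, 24.6 and 9.99. SCG2, a secretogranin, had 7.23, 0.607 and 3.97, and 8.74, 2.88 and 4.05. Control 2 was the lowest library for 8 of the 13 genes. The share of all genes tested that were lowest in control 2 was not computed, so this count has no background. That library also had the lowest sum of neuron markers, and a link between the 2 was not tested. CPE, the carboxypeptidase that trims hormone precursors, had 0.594 FPKM there and 2.57 to 8.22 in the other libraries.

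**Figure D5:**
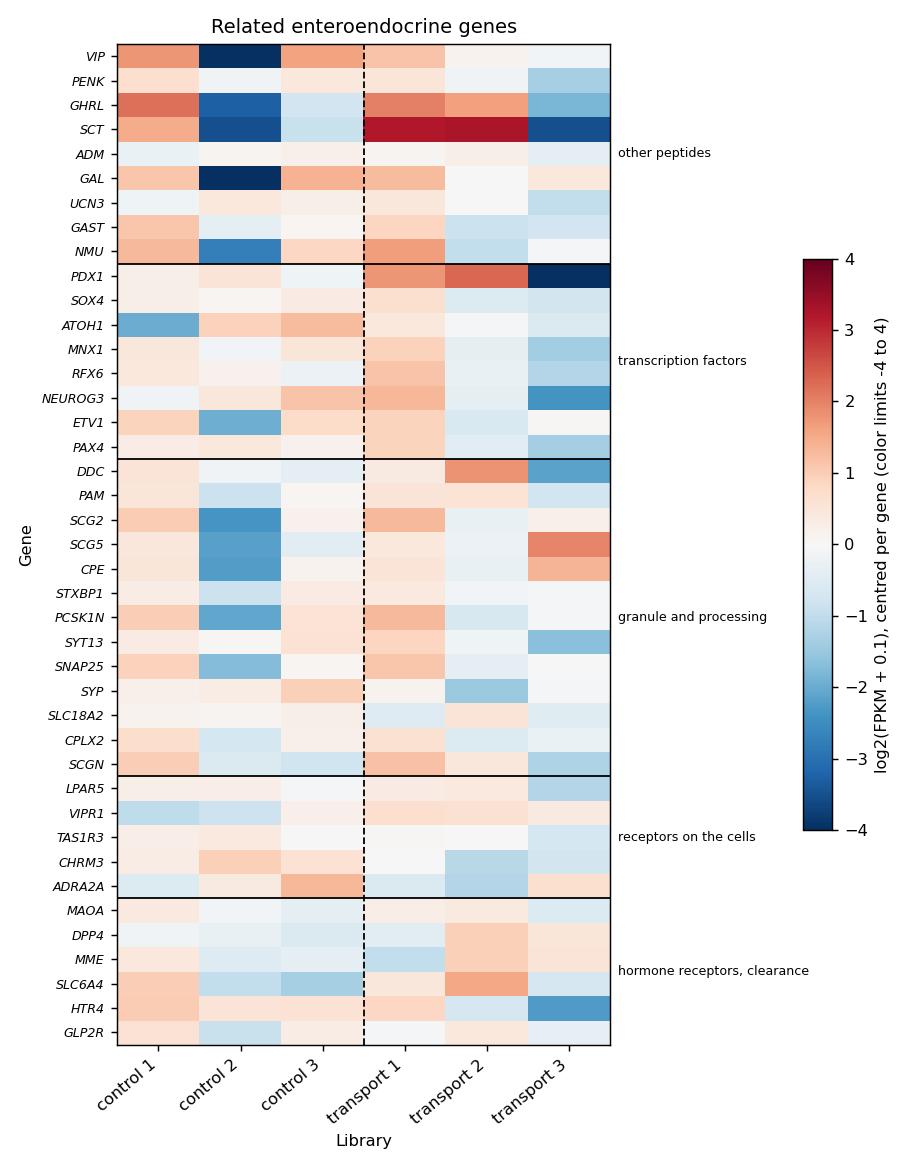
Log2(FPKM + 0.1), centred for each gene, of the 41 tested genes of the 5 related lists in the 6 libraries (red above and blue below the mean of the gene, colors limited at 4 in each direction). Control 2 is low for many granule genes and for VIP and GAL, and transport 3 is low for most of the transcription factors.

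Receptors and channels of enteroendocrine sensing were mostly under the filter, with 5 of 26 symbols tested. The 5 had a median log2 fold change of -0.47, or -0.25 without transport 3. None passed, and 1 was higher and 1 lower at an unadjusted p under 0.05, which 3.52% and 1.61% of all genes tested reached in those directions. VIPR1, a receptor of VIP on epithelium, had an FPKM of 3.24, 3.72 and 7.67 in controls and 10.8, 10.1 and 8.53 after transport, higher without overlap as in 6.93% of all genes tested (log2 fold change 0.98 ± 0.36, edgeR adjusted p = 0.890; 1.10 without transport 3). CHRM3, the muscarinic receptor M3, had 2.03, 3.26 and 2.52, and 1.67, 0.707 and 0.946, lower without overlap as in 4.19% of all genes tested. Its log2 fold change was -1.30 ± 0.46 (edgeR adjusted p = 0.890), and -1.19 without transport 3. VIPR1 and CHRM3 were the only genes tested in this list without overlap, 40% of its 5 against 11.1% of all genes tested. LPAR5, a lysophosphatidic acid receptor, had 4.06 to 12.1 FPKM and TAS1R3, a subunit of the sweet and umami receptors, 3.61 to 7.89, each lowest in transport 3.

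Of 28 genes for hormone receptors and clearance 6 were tested and none passed (median 0.22, or 0.34 without transport 3). DPP4, the peptidase that inactivates GIP and GLP-1, had an FPKM of 55.6, 50.1 and 40.8 in controls and 46.2, 119.6 and 87.2 after transport. MME, neprilysin, which degrades several gut peptides, had 34.7, 18.2 and 20.1, and 13.1, 50.7 and 36.9. MAOA, which breaks down serotonin, had 47.5 to 92.0 with overlap between the groups. The receptor genes of GIP, CCK-A, PYY and motilin were not among the 6 tested.

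Markers of other cells that use these genes were set beside the results. Enteric neurons also express SST, VIP and granule genes, and 17 of 18 neuron markers were in the table. Their summed level was 20.0 to 154 CPM in controls and 51.0 to 147 after transport. In control 2 the neuron marker ELAVL4 had 0 counts, while CHGA had 50.9 and SST 13.7 FPKM in that library. In the other 5 libraries ELAVL4 had 0.123 to 0.751 FPKM. Pancreas uses SST and GCG as well. Among 14 pancreas markers measured, 7 had 0 counts in every library, INS and PPY included. Their sum was 1.73 to 3.04 CPM in controls and 4.10, 4.77 and 157 after transport. GP2, which follicle-associated M cells also express, held 8336 counts in transport 3 and 0 to 207 elsewhere, and CPA1, a pancreatic carboxypeptidase, had 0.300 to 1.05 FPKM.

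For mast cells 8 of 12 markers were in the table, with sums of 21.4 to 67.1 CPM in controls and 31.1 to 57.2 after transport. MS4A2, a chain of the IgE receptor, had 0.480 to 2.04 FPKM and CPA3 was not analysed here.

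Markers of position and of epithelium were set beside the hormone genes, and their part in the results was not tested. The 10 proximal markers summed to 9760, 8880 and 7950 CPM in controls and 2940, 4310 and 665 after transport, and the 9 ileal ones to 463 to 955 in controls and 512, 663 and 4890 after transport. FABP1 and APOA4 made up most of the proximal sum in every library but transport 3, and the other 8 markers summed to 1060, 757 and 790 CPM in controls and 800, 1380 and 337 after transport. FABP1, which carries fatty acids within enterocytes, had 4700, 5240 and 3130 CPM, and 1630, 1830 and 216. The median log2 fold change of the 9 proximal genes tested was -0.18, or 0.30 without transport 3. APOA4, a lipoprotein of the absorbing enterocyte, had 735 to 1029 FPKM in controls and 130.2, 285 and 28.7 after transport. Of the ileal list, CUBN, the receptor for vitamin B12 with intrinsic factor, had 12012 counts in transport 3 and 0 to 19 elsewhere, and SLC10A2, the ileal bile acid transporter, 3443 against 12 to 263. The 15 epithelial markers summed to 9800 to 12300 CPM in controls and 8320, 10800 and 4540 after transport. EPCAM had 108, 136 and 112 FPKM in controls and 39.5, 136 and 26.0 after transport, and VIL1, villin, 136 to 320.5. CDH1, E-cadherin, had 80.9 to 135 in controls and 41.8 to 63.7 after transport (log2 fold change -1.21, edgeR adjusted p = 0.890; -1.07 without transport 3).

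Scaled to these epithelial markers in place of the TMM factors, the median of all genes moved from 0.07 to 0.76. Relative to that median GIP and CCK were at -0.23 and MLN at -0.39, so their sign turned from 0.17, 0.16 and 0.11 relative to the median before. SST, PYY and CHGA stayed below it (-0.96, -0.85 and -1.03), and GCG, NTS and CHGB above it (0.92, 1.17 and 0.40). No member passed the test on that scale, where the smallest adjusted p among the 9 was 0.422 in edgeR.

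Transport 3 also carried genes of B cells, with CD79B at 186 FPKM against 0.934 to 2.97 and CD79A at 66.1 against 5.02 to 9.06 in the other libraries. LRMP of the tuft cell list, a gene that B cells also use, had 115 against 1.11 to 2.84. The goblet cell factor CREB3L1 had 13.5, 25 and 27.6 FPKM in controls and 9.20, 8.25 and 4.61 after transport (log2 fold change -1.61, edgeR adjusted p = 0.890; -1.36 without transport 3). Of the 9 goblet cell genes tested 6 were lowest in transport 3, and their sum was 710, 2280 and 2310 CPM in controls and 1580, 1170 and 486 after transport.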

How the data were processed

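Per the file headers, the table deposited by the authors gives a whole-number count and an FPKM for each of 24358 Ensembl pig genes in each of 6 jejunal libraries. Trizol extraction and standard Illumina library preparation are recorded in the labels' protocols. Which aligner, counter, strand setting and build were used is not given in the sources used here. Coordinates are copied from the deposited table. A count of 0 is written there as an FPKM of 0.0001. FPKM depends on the assumed transcript length and on library composition. Column names carry a prefix for the group and were matched to samples by group and replicate number. A gene name table supplied symbols for 951 of 6907 rows that had only an identifier.

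The genes tested reached an FPKM of 1 in 3 or more of the 6 libraries. Tests were run on the deposited counts with edgeR 4.0.16 in R 4.3.3 (quasi-likelihood test, TMM scaling, group as the only factor, Benjamini-Hochberg adjustment over all genes, threshold 0.05). The common biological coefficient of variation was 0.473. Standard errors come from the F statistic. Patterns were compared on log2 CPM with a prior count of 2. Counting intervals are exact Poisson at 95% and cover counting error only. Of the 54 values of the 9 genes, 3 rested on fewer than 100 counts. The script was tested on simulated data. Alternatives were edgeR with RLE factors, with epithelial scaling, with no filter and with a minimum mean FPKM of 5, DESeq2 1.42.0, limma 3.58.1 on log2(FPKM + 1) and log2(FPKM + 0.1), a replicate block, and libraries left out.

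To check for pairing, each library's deviations from its group mean were correlated across genes. Same-numbered libraries gave r = 0.217, 0.111 and 0.187, and unlike-numbered ones gave -0.261 to 0.101. The values are small and lie close together in part, so they cannot settle whether the numbers pair the samples. No label gives a meaning to the replicate number. The unpaired fit was kept as the main one, and the paired result stands beside the summary of the 9 genes.

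The genes and lists were chosen with earlier results of these data known. Named were all members, list genes with an unadjusted p under 0.05, the 3 genes of highest mean FPKM in each of 5 related lists, set markers of other cells, and, among genes with a symbol that are no members, the 2 nearest in pattern to each member. FABP1, GATA4, GP2, CUBN, SLC10A2, CPE, SYP, GAL, SCT and NEUROG3 fall outside that rule and were chosen with their values in view.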

Additional observations from a re-analysis of the deposited data

How the results depend on the processing

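No member passed an adjusted p of 0.05 under any of the 15 alternatives, where DESeq2 gave GCG no adjusted p and the filter at a mean FPKM of at least 5 left GCG out, and the smallest adjusted p was 0.422. SST and CHGA kept their lower value in every alternative run, and over all members and alternatives 107 fits kept their direction and 27 turned. With the replicate block the log2 fold changes of GIP, CCK, GCG and MLN turned to -0.29, -0.08, -1.46 and -0.89, and the block changed no call of a member or count of calls. With limma on log2(FPKM + 1) they were -0.25, -0.02, -0.51 and -0.60, and with log2(FPKM + 0.1) -0.30, -0.04, -1.13 and -1.29. Without both control 2 and transport 3, GCG was at -2.99 and NTS at -0.80. Leaving out 1 library at a time gave ranges of -0.65 to 1.25 for GIP, -0.30 to 0.88 for CCK, -0.23 to 1.12 for MLN, -2.91 to 0.92 for GCG, -0.38 to 2.70 for NTS, -1.05 to 0.07 for PYY, -1.37 to -0.23 for SST, -1.17 to -0.25 for CHGA and -0.0029 to 1.34 for CHGB. The cause was not tested.

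Genes called over the whole table numbered 2 higher and 0 lower in edgeR. DESeq2 called 27 and 23. Higher genes numbered 1 with a mean FPKM of at least 5, with limma at either pseudocount and without both control 2 and transport 3, and 0 to 2 with 1 library left out, where lower genes numbered 0 to 1. With 7 counts in 1 library, the depth limits the value of MLN there.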
